A study of Caenorhabditis elegans with 2 samples.

Results

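The 10 genes described here set the sexual fate of Caenorhabditis elegans and balance the output of its X chromosomes. They are xol-1, sdc-1, sdc-2, sdc-3, her-1, dpy-21, dpy-26, dpy-27, dpy-28 and dpy-30. The genes were chosen by name, with the deposited signal values of the region near xol-1 already known, so those values are given as a description and no test was made on them. NHR-10 binding had been mapped by chromatin immunoprecipitation sequencing (ChIP-seq) in whole L2 larvae of strain OP239, in 1 group of 2 biological replicates. The strain carries the mutation unc-119(ed3) on chromosome III and the transgene wgIs239, which expresses NHR-10 fused at its C terminus to GFP and FLAG. The sexes were pooled, and the share of males was not measured here. Signal from the sexes therefore cannot be told apart, although several of the genes act in 1 sex, and no other strain, stage or treatment was compared.

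A region belonged to a gene when its summit, the position of highest enrichment, lay in the gene body or within 5000 bp on either side. Of the 30000 regions of the pooled list, made by the authors from both replicates together, 59 met this rule. Signal is the authors' own enrichment value of each region, and rank 1 is the highest signal of a list. The 491 regions of highest signal form the authors' thresholded list. It was set by the irreproducible discovery rate, which measures agreement of ranks between the replicates. Agreement does not hold for each peak: 395 of the 491 had a summit of both replicate lists within 100 bp. Coordinates are those of ce11, and 19973 protein-coding genes were annotated on the same assembly. Read counts are not part of these lists, and the depth behind each value is unknown. The control library was not analysed here, so no background measured in control samples stands beside the values, and the promoter of the transgene is not given in the sources used here.

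In this pathway, xol-1 is the switch that reads the number of X chromosomes. It is highly active in XO embryos, where it leads to male development, and is kept low in XX embryos. When it is low, SDC-2 becomes active and, with SDC-1 and SDC-3, brings the dosage compensation complex to both X chromosomes and turns off her-1, whose product is a secreted signal for male fate. The complex contains a condensin built with DPY-26, DPY-27 and DPY-28, together with DPY-21 and DPY-30, and lowers transcription from the X.

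The strongest region of the 10 genes lay upstream of xol-1 and carried a pair of sequence words in opposite orientation. The gene lies on X from 8041313 to 8044409 on the plus strand, and the summit of the region at 8036403, 4910 bp upstream of the gene start, in intergenic sequence. The bases within 100 bp of this summit are shown because the pooled summit falls on one of these words, and the capitals mark each CGCAGGGA, read on either strand. All sequences here are from the RefSeq genome of assembly WBcel235, plus strand, 5′ to 3′.
xol-1 upstream peak, chrX:8036303-8036503: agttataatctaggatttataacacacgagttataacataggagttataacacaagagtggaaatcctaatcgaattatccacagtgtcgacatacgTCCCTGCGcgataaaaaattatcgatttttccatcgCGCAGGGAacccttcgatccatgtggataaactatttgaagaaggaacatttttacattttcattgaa

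The copy on the minus strand covers 8036400 to 8036407 and holds the pooled summit itself. The copy on the plus strand covers 8036436 to 8036443, so that the starts of the copies are 36 bp apart and the reverse-strand copy comes first. CGCAGGGA is part of the motif known as MEX, which is found at the X sites that recruit the dosage compensation complex. Whether this stretch recruits the complex was not tested.

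Of the 59 regions at the 10 genes, 1 held CGCAGGGA within 100 bp of the summit, against 0.207% of all pooled regions (62 of 30000). Those 62 regions divide into 26 on X and 36 on autosomes. On X, 15 of the 26 were thresholded (57.7%), against 2 of 36 on autosomes (5.56%). Of all pooled regions, 1.68% were thresholded on X and 1.63% on autosomes. The xol-1 peak stood at place 4 among the 26, which was also its place among all 5832 X regions. Only 2 of the 62 regions held 2 copies, and both were on X. The xol-1 peak was the 1 region where a minus-strand copy was followed by a plus-strand copy. The other, at 11094224, had both copies on the minus strand, 101 bp apart, and the highest signal of the pooled list, 218.

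**Figure D1:**
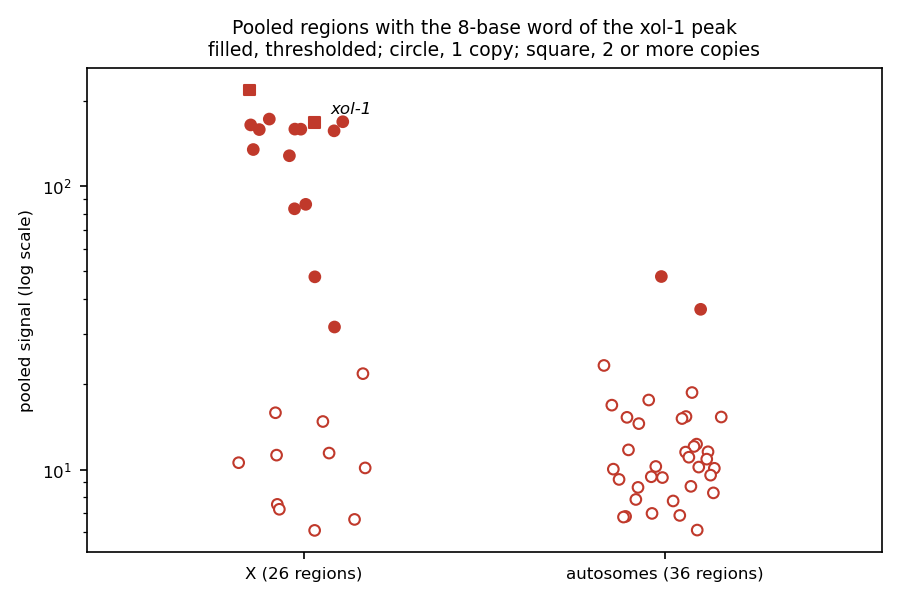
Pooled signal (log scale) of the 62 pooled regions that hold CGCAGGGA within 100 bp of the summit, 26 on X and 36 on autosomes, with 1 point for each region, filled where thresholded and square where 2 copies are present. The xol-1 peak is labelled, and the highest X regions lie above every autosomal region, of which the highest has signal 48.0.

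Each replicate list had a region with its summit within 100 bp of that of the xol-1 peak. The signal at the xol-1 peak was 168 in the pooled list (rank 5), 53.1 in replicate 1 (rank 1) and 126 in replicate 2 (rank 9). The scale between lists is not stated, but against the median of its own list the value was 20.03-fold in the pooled list, 17.0-fold in replicate 1 and 18.3-fold in replicate 2. The summits did not fall on the same base. In replicate 2 it was at 8036399, 4 bp from the pooled summit, and in replicate 1 at 8036497, 94 bp away on the side of xol-1 and outside both copies of the word.

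A neighbouring region, with its summit 202 bp nearer to xol-1 at 8036605, had a pooled signal of 23.3 (rank 719) and was not thresholded. It was matched in replicate 2 at 14.0 (rank 1663), and no region of replicate 1 had its summit within 100 bp. The replicate 1 summit at 8036497 lay between both pooled summits, and the limit of 100 bp assigned it to the peak. With a limit of 50 bp, neither pooled summit would have a match in replicate 1. A tRNA gene and the non-coding RNA gene C18A11.13 lay within 500 bp of both pooled summits. The nearest protein-coding gene start was that of xol-1 in each case.

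Closer to xol-1 itself the signal was low. A region 173 bp upstream of the gene start had signal 6.45 and rank 26717, near the bottom of the list. In replicate 2 it had signal 5.64, and replicate 1 had none within 100 bp. The remaining regions were 4012 and 2921 bp upstream (7.18 and 7.61), in a coding exon of xol-1 (7.51), and 4108 bp past the gene end (11.0), nearest to C18A11.4. The median over all pooled regions was 8.38. At 4910 bp the peak was just inside the limit of 5000 bp, and the next region outside it, 6629 bp upstream, had signal 7.02. The gene C34D10.1 shares the peak under the same rule.

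The genes most like xol-1 were sought by the ranks of their highest regions over the pooled, replicate 1 and replicate 2 lists. The measure was the distance between log10 ranks over these 3 lists, of which the pooled list is made from the other two. The closest 5 genes were all on X and fell on 2 regions. At a distance of 0.453, cpd-2, T27A8.2 and T27A8.7 share a region at 16056606, with ranks 9, 2 and 15 and pooled signal 159. At 0.609, lev-9 and mom-1 share one at 6296567, with ranks 6, 4 and 8 and pooled signal 164, which also belongs to cest-16 at the same distance. Both regions hold CGCAGGGA once, on opposite strands, and the stretches around it are printed for comparison with xol-1, with the word in capitals.
cpd-2, T27A8.2 and T27A8.7, chrX:16056502-16056569: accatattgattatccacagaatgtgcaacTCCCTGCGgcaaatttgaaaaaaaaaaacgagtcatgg
lev-9 and mom-1, chrX:6296547-6296614: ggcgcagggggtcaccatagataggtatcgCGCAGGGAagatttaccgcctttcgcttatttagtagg
xol-1, chrX:8036370-8036473: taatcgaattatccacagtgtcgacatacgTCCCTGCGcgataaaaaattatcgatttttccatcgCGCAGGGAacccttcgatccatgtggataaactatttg

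Across the 10 genes, thresholded peaks were present at xol-1 and dpy-28 and at none of the other 8. Both lay more than 2000 bp from the gene, and with that narrower limit no thresholded peak was counted. At 5000 bp they were 2 of 59 regions, where 1.64% of all pooled regions were thresholded, and 2 of 10 genes, where 7.13% of all protein-coding genes (1424 of 19973) had a thresholded summit in the same window. The windows of the 10 genes together held 3.38 regions per 10 kb, against 2.99 over the nuclear genome. The median signal of the 59 regions was 8.69, with a range from 6.10 to 168, and 32 of them were above the median of the pooled list. By position, 26 lay upstream of the gene, 14 in the gene body and 19 downstream. For 26 of the 59 the nearest protein-coding start was that of the gene itself.

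**Figure D2:**
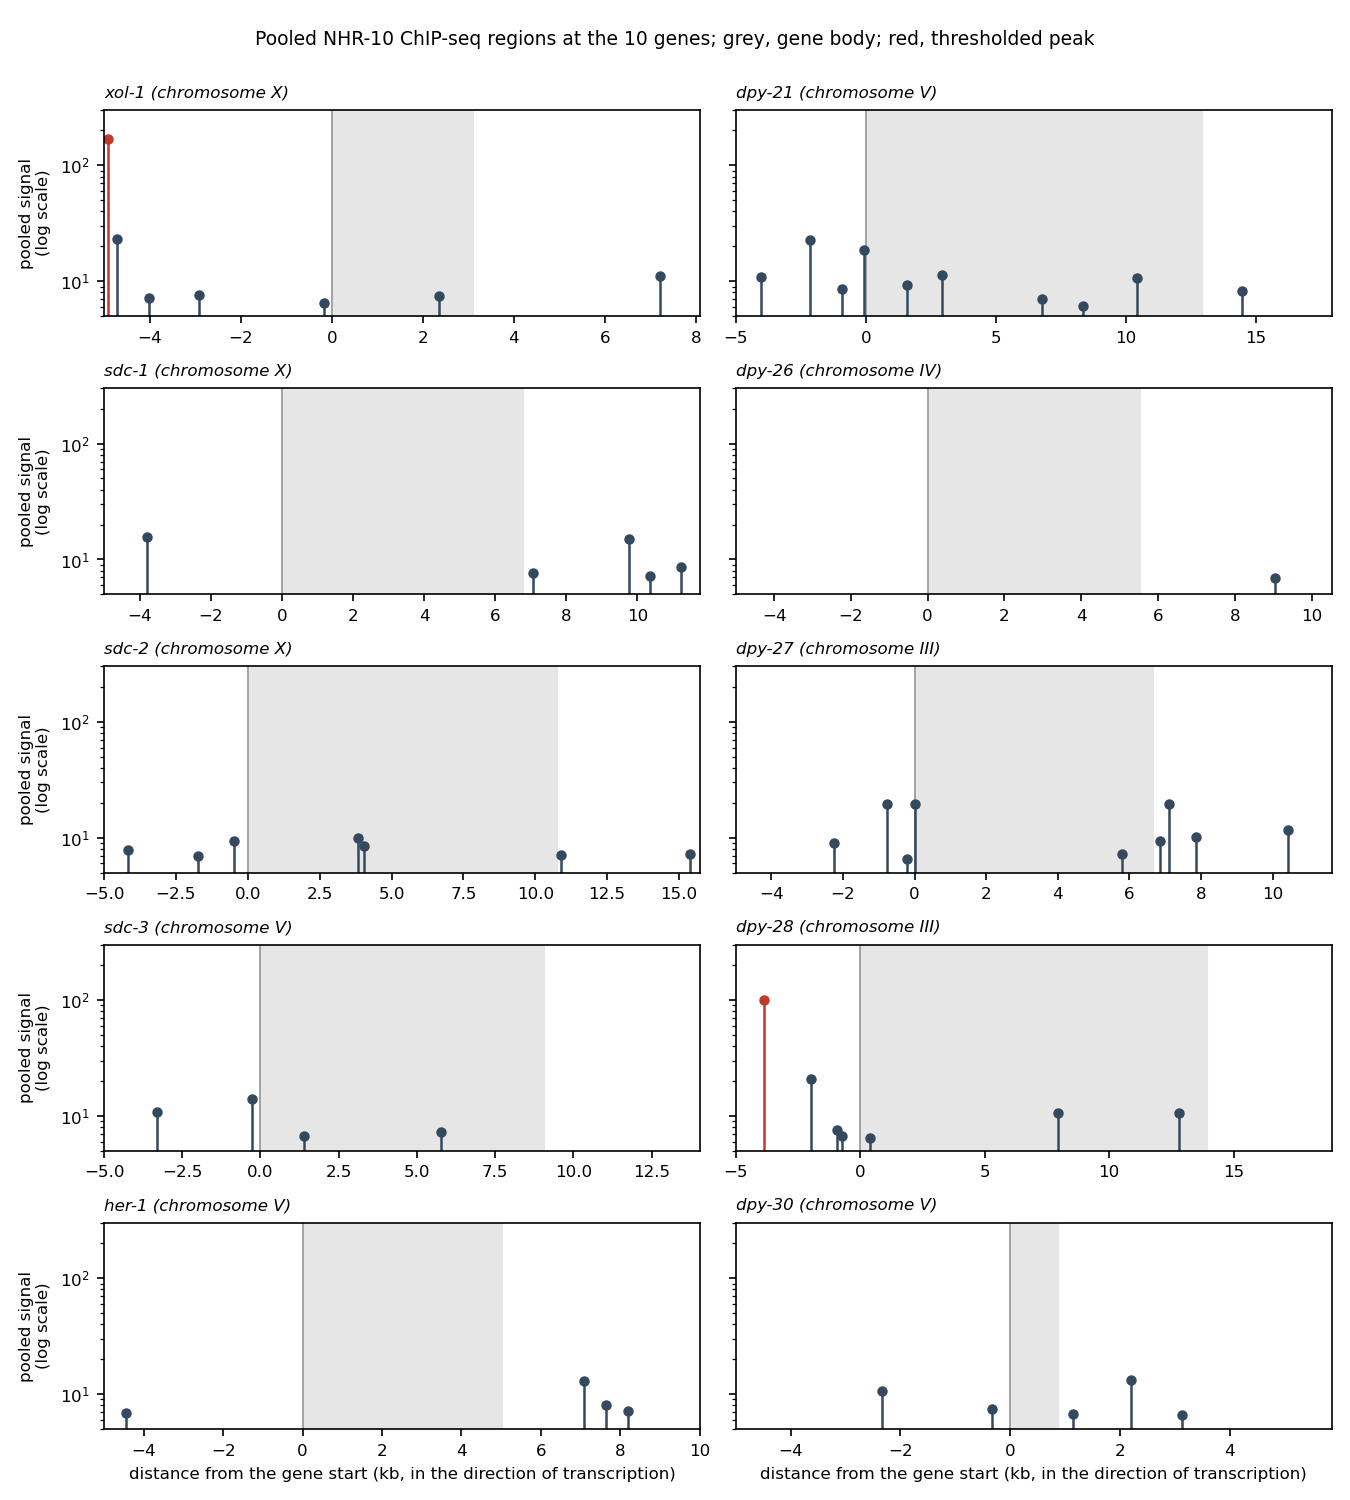
Pooled signal (log scale) of the 59 regions by distance from the start of each gene in kb, 1 panel for each gene, with the gene body in grey and thresholded peaks in red. The peaks of xol-1 (168) and dpy-28 (101) stand above all other regions, which reach 23.3 at most.

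The SDC proteins link the switch to the X chromosome, and none of their genes had a thresholded peak. SDC-2 is the hermaphrodite-specific protein that starts assembly of the complex on X. Its gene, on X from 11522707 to 11533450 on the plus strand, had 7 pooled regions with signals from 6.99 to 10.01. The highest, at 11526527 in a coding exon of sdc-2 that overlaps the antisense RNA gene anr-16, ranked 9144 in the pooled list. It was matched in replicate 1 at 6.65 (rank 1292) and had no match in replicate 2. Near the start of the gene the replicates had different regions, with summits more than 100 bp apart. Replicate 1 had a region of signal 8.72 and rank 513 with its summit 251 bp upstream of the start. The nearest pooled region, 480 bp upstream, had signal 9.42 (rank 10961) and was matched in replicate 2 at 5.35 (rank 25053).

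SDC-3, a zinc finger protein, showed the opposite order of replicates. The gene lies on V from 15039148 to 15048207 on the minus strand, and its highest pooled region was 276 bp upstream, with signal 14.1 and rank 2931. Replicate 2 had its summit on the same base, at signal 15.5 and rank 1199. In replicate 1 the whole window held 1 region, in the gene body at signal 2.55 and rank 16466. The other pooled regions of sdc-3 were in its coding exons (7.25 and 6.73) and in a coding exon of fbxa-82 (10.8).

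SDC-1, also a zinc finger protein, is encoded on X from 16275763 to 16282534 on the plus strand. None of its 5 pooled regions lay in the gene body. The highest was 3785 bp upstream, with a pooled signal of 15.6 (rank 2146), 6.37 in replicate 1 (rank 1495) and 8.63 in replicate 2 (rank 8081), and its nearest gene start was that of ifa-3. A further region 3006 bp past the gene end had signal 14.9 (rank 2459) and lay within 500 bp of a tRNA gene and of the non-coding RNA gene F52E10.10.

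At her-1, the target that SDC proteins repress, the pooled list had no region in the gene body. The gene lies on V from 9697015 to 9702035 on the plus strand. Upstream there was 1 region, at 4439 bp, with signal 6.93 (rank 23080), nearest to the start of ztf-9. Another 3 regions were in introns of the downstream gene xbx-6, with signals 13.1, 7.998 and 7.18. Each of the 4 was matched in replicate 2 and none in replicate 1. The highest, with rank 3836 in the pooled list, had a signal of 9.11 and rank 6835 in replicate 2. Replicate 1 had 6 regions of its own in the window, the highest past the gene end at signal 4.13 (rank 5958).

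Among the condensin subunits, dpy-28 had the second thresholded peak of the set. DPY-28 is a subunit of both the dosage compensation condensin and a mitotic condensin, and its gene lies on III from 10763131 to 10777076 on the plus strand. The peak, at 10759276, had signal 101 and rank 26 in the pooled list, 34.2 and rank 14 in replicate 1, and 69.5 and rank 36 in replicate 2. These are 12.1-fold, 11.0-fold and 10.1-fold of the median of each list. The summits of both replicates lay within 20 bp of the pooled one.

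The dpy-28 peak is at the start of another gene. It was 3855 bp upstream of dpy-28 but 31 bp upstream of tasp-1, which lies from 10759307 to 10763021 on the same strand and ends 109 bp before dpy-28. The signal at dpy-28 itself was low, with 7.63 and 6.74 at 926 and 726 bp upstream, inside tasp-1, and 6.48 in the gene body 389 bp from the start (rank 26447). Another region in an intron of tasp-1, 1963 bp upstream of dpy-28, had signal 20.97 (rank 932) and was matched in replicate 2 at 18.1 (rank 769). In replicate 1 no summit was within 100 bp of it. The remaining regions, 7942 and 12790 bp into dpy-28, had signals 10.5 and 10.7. The sequence at the peak is printed for comparison with that at xol-1. It has no CGCAGGGA, a GC content of 54.7% against 35.8% at xol-1, and, in capitals, GAGAGA and the nuclear receptor half-site AGGTCA once each.
dpy-28 and tasp-1 peak, chrIII:10759176-10759376: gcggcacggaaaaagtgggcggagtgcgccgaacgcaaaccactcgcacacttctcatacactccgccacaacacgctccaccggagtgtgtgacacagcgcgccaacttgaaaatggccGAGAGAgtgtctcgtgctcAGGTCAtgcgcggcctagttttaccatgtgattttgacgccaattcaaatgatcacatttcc

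DPY-27, the SMC subunit that distinguishes this condensin, has its gene at 3813018 to 3819679 of III, minus strand. Its 9 pooled regions included 3 of nearly equal signal. One was 1 bp upstream of the gene start, with signal 19.4 (rank 1145), and was matched in both replicates, at 6.09 (rank 1752) and 14.7 (rank 1420). Another, 762 bp upstream, had signal 19.4 (rank 1156) and was matched in replicate 2 at 15.7 (rank 1156). The highest, at 19.6 (rank 1103), was 455 bp past the gene end and was matched in replicate 2 at 15.3 (rank 1239). Apart from these, signals ran from 6.50 to 11.6. Of the regions within 500 bp of the start of their own gene among the 10, the one 1 bp upstream of dpy-27 had the highest signal.

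The region 762 bp upstream of dpy-27 is printed for its repeats of GAGAGA, in capitals, of which it has 4.
dpy-27 upstream region, chrIII:3820341-3820541: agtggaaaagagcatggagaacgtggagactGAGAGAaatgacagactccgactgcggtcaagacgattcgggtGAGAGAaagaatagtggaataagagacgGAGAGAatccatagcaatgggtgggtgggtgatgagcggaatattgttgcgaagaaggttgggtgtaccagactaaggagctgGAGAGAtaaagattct

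For DPY-26, the third of these condensin subunits, the highest region had a lower signal than that of any other of the 10 genes in the pooled and replicate 2 lists, but not in replicate 1. The gene lies on IV from 12445801 to 12451335 on the minus strand. Its only pooled region was 3505 bp past the gene end in a coding exon of C25G4.17, with signal 6.89 and rank 23348, and was matched in replicate 2 at 4.95 (rank 28559). Replicate 1 had 2 regions in the window, the higher at 4.76 (rank 3883) 4968 bp upstream. Replicate 2 had 3, the highest at 7.79 (rank 10796). None of these 2 lists' highest regions lay in the gene body.

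DPY-21, which removes a methyl group from dimethylated lysine 20 of histone H4 on the X, had more regions than any other of the 10 genes. The gene lies on V from 17936282 to 17949193 on the minus strand, and it had 10 pooled regions, 5 of them in the gene body. The highest, 2157 bp upstream, had a pooled signal of 22.6 (rank 784), 8.74 in replicate 1 (rank 510) and 13.2 in replicate 2 (rank 1967). Its nearest gene start was that of Y59A8B.24, 599 bp away. A region 69 bp upstream of dpy-21 itself had signal 18.6 (rank 1298) and 14.3 in replicate 2 (rank 1516), and replicate 1 had none within 100 bp. The lowest thresholded signal in the pooled list was 27.4, and no region of dpy-21 reached it. The summit sequence of the highest region is rich in GC (57.7%) and has GAGAGA at the 2 places in capitals.
dpy-21 upstream region, chrV:17951250-17951450: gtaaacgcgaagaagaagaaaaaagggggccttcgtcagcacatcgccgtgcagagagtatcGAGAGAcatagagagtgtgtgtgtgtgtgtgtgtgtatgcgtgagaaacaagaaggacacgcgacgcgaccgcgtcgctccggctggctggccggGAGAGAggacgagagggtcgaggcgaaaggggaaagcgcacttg

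DPY-30 serves both the dosage compensation complex and the COMPASS complex, which methylates lysine 4 of histone H3. The gene is short, on V from 12191519 to 12192385 on the plus strand, and had 5 pooled regions. The highest, with signal 13.3 and rank 3601, lay 1344 bp past its end in an intron of rnp-1, nearest to the start of ogdh-2. It was matched in replicate 2 at 13.1 (rank 2038), and the only region of replicate 1 in the window was in the gene body at 2.38 (rank 18243). A region 334 bp upstream of dpy-30 had signal 7.40 and rank 20189.

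The share of regions present in both replicates was near that of the whole pooled list. Of the 59 regions, 7 (11.9%) had a summit of each replicate list within 100 bp, against 12.7% of all pooled regions and 80.4% of thresholded peaks. The 7 were 2 at xol-1, 2 at dpy-27 and 1 each at sdc-1, dpy-21 and dpy-28. Replicate 2 matched 38 of the 59 (64.4%, against 65.3% of all pooled regions) and replicate 1 matched 17 (28.8%, against 26%). Another 11 were matched in neither. By gene, the ranks of the highest regions agreed most closely at dpy-27, at 1103, 1119 and 1156 in the pooled, replicate 1 and replicate 2 lists, although these were not the same region. At sdc-2 they were 9144, 513 and 6536, and at sdc-3 2931, 16466 and 1199. With 2 replicates and no stated scale between lists, no error of a signal value could be computed.

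**Figure D3:**
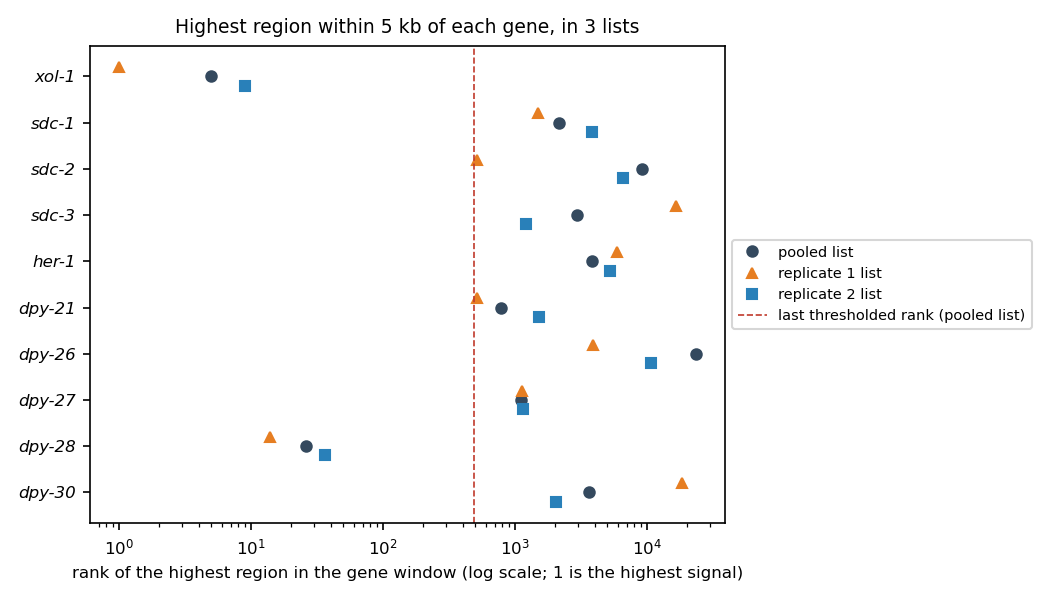
Rank of the highest region in the body or within 5 kb of each gene in the pooled, replicate 1 and replicate 2 lists (log scale, rank 1 at the left), with the last thresholded rank of the pooled list, 491, as a dashed line. The genes xol-1 and dpy-28 lie left of the line in all 3 lists, and sdc-3 and dpy-30 rank far lower in replicate 1 than in replicate 2.

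Of the other sequence words searched, GAGAGA was within 100 bp of 13 of the 59 summits (22.0%, against 13.8% of all pooled regions and 39.7% of thresholded peaks). The nuclear receptor half-sites AGTTCA and AGGTCA were at 5 and 2 of the 59 (8.47% and 3.39%, against 12.7% and 4.90% of all pooled regions), the latter at dpy-27 and dpy-28. At xol-1 the neighbouring region at 8036605 had AGTTCA on each strand, and the peak itself had neither half-site. TGATAA, a site of GATA factors, was at 16 (27.1%, against 19.2%). CGCAGG, which CGCAGGGA contains, was found at the xol-1 peak only, against 2.38% of all pooled regions. Both strands were searched, and a match describes these letters and does not show a binding site. Median GC content over the same windows was 33.8% at the 59 regions and 34.8% over the pooled list.

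Other genes of sex determination and dosage compensation were taken from a list of 33, and 5 of them had a thresholded peak in the same window, beside the 7.13% of all protein-coding genes. Of these peaks only that of set-4 had the listed gene as its nearest gene start. SET-4 makes the dimethylated and trimethylated forms of lysine 20 of histone H4, the reverse of the step catalysed by DPY-21. Its peak, 265 bp upstream on II at 6331606, had a pooled signal of 53.2 (rank 108), 16.1 in replicate 1 and 37.7 in replicate 2. The other 4 were laf-1, ash-2, tra-4 and gld-1. The peak of laf-1, an RNA helicase, had signal 42.9 (rank 175, nearest to swsn-3). That of ash-2, a COMPASS subunit, had 30.1 (rank 402) and lay in an exon of ash-2. It was 537 bp past the start of ash-2 and 531 bp from that of Y17G7B.20. For tra-4, a zinc finger repressor of male fate, the peak had 29.1 (rank 430, nearest to kin-29). For gld-1, a germline RNA-binding protein, it had 27.4 (rank 491, nearest to T23G11.11). The peak at gld-1 was the last of the thresholded list. In replicate 1 the highest regions in the windows of laf-1, ash-2, tra-4 and gld-1 ranked 1020, 870, 3808 and 1322. In replicate 2 they ranked 203, 332, 407 and 420. For set-4 the ranks were 78 in replicate 1 and 140 in replicate 2.

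Among the partners of the member genes in the same complexes, ash-2 was the 1 with a thresholded peak. For mix-1, the SMC partner of DPY-27, the highest region was 47 bp past the gene start with signal 20.2 (rank 1021). For capg-1, the remaining condensin subunit, it was 310 bp upstream with 17.1 (rank 1645). The gene hcp-6 encodes a subunit of another mitotic condensin, not that of DPY-28. Its highest region had signal 25.0 (rank 606). The X signal elements that repress xol-1, namely ceh-39, fox-1 and sex-1, had highest signals of 17.5, 13.2 and 12.9 in their windows, that of ceh-39 in a tRNA gene and that of sex-1 nearest to nucb-1. All 33 had a pooled region in their window, with a median best rank of 2166. The median best rank was 2538 for the 10 genes and 5945 for all 18672 protein-coding genes with a region. Of the 10 genes, 8 were ahead of the median of all genes. A window with more regions has more chances of a high rank, and the windows were not matched for length. The median over all protein-coding genes was 4 regions in the window, and the 10 genes together had 59. By gene, there were 10 at dpy-21, 9 at dpy-27, and 7 each at xol-1, sdc-2 and dpy-28. There were 5 each at sdc-1 and dpy-30, 4 each at sdc-3 and her-1, and 1 at dpy-26.

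**Figure D4:**
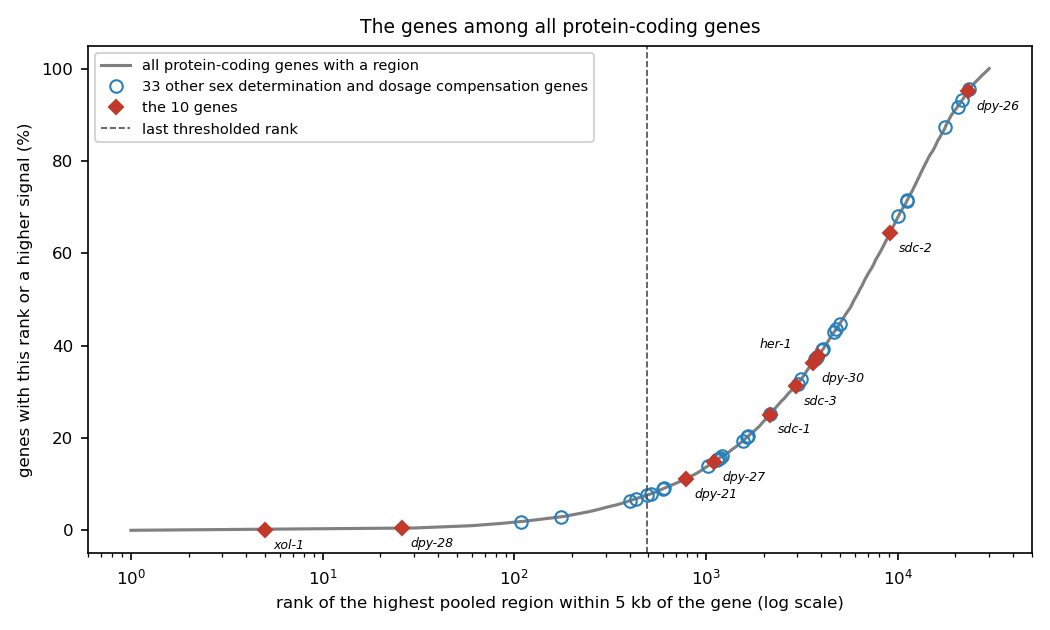
Rank of the highest pooled region in the body or within 5 kb of a gene (log scale) against the percentage of protein-coding genes with that rank or a higher signal, among the 18672 with a region. The line is all genes, red diamonds are the 10 genes, from xol-1 at rank 5 to dpy-26 at rank 23348, and blue circles are the 33 other genes of the pathway.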

How the data were processed

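Regions came from 4 deposited ce11 lists in narrowPeak layout. Per the deposited notes, each replicate list was derived by the authors from 1 alignment and a control, the pooled list from the 2 alignments together with it, and the thresholded list from these 3 lists. The caller, aligner, control depth and cutoff are not given in the sources used here. The deposited signal per region was used as it stands, to rank and describe regions within a list. The ce10 lists and the control library were not analysed here.

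Genes came from Ensembl release 115 on WBcel235, the assembly of ce11, and sequence from the RefSeq genome of that assembly. Pooled and replicate regions were matched by summits within 100 bp, and words were searched within 100 bp of the summit. The code was tested on simulated data. The members, lists and words were chosen with earlier results of these data known, so no test was made. Named genes were the 10 members, the nearest gene starts, pathway genes with a thresholded peak and the 5 genes most like xol-1, and mix-1, capg-1, hcp-6 and the X signal elements were named after their values were seen. Distances, thresholds, matching and each replicate were varied. Python 3.11.15, numpy 2.4.6, pandas 2.3.3 and matplotlib 3.10.9 were used.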

Additional observations from a re-analysis of the deposited data

How the results depend on the processing

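With 2000 bp in place of 5000 bp around the genes, the regions fell from 59 to 35 and the thresholded peaks from 2, at 2 genes, to 0, since those of xol-1 and dpy-28 lie farther away, and her-1 and dpy-26 then had no region and no rank. Taking the 1000 highest of the 30000 pooled regions in place of the thresholded list gave 5 peaks at 3 genes. Of all protein-coding genes with a region, 13.5% had a best rank of 984 or a higher signal. Among the 33 other genes, 5 had a peak, against 2 with the upper 50% of the thresholded list and 8 with the 1000 highest regions. Regions present in both replicates numbered 7 with summits within 100 bp, 2 within 50 bp, 14 within 200 bp and 22 with any overlap. Using 1 replicate list alone, with its 491 highest regions as thresholded, gave 52 to 62 regions, 2 thresholded peaks at 2 genes in either list, 3 (replicate 1 alone) to 6 of the other genes with a peak, and a median best rank of 1307 to 1777 against 2538. Those ranks come from lists of unequal length. Counts of regions and thresholded peaks otherwise moved by less than 1.5 times. No paired analysis was possible because there was 1 group. Depth limits all values, and its size is unknown.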

Other observations

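Of the 26 X regions with CGCAGGGA, 5 lay within 1000 bp of a protein-coding gene start. Of the 15 that were thresholded, 1 lay that close, near nspc-17. The 11 that were not thresholded ranked from 855 to 29238 in the pooled list, so that the word was also present at regions of low signal on X. The word was within 100 bp of 11 of the 15 X peaks of highest signal.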
